A study of Mus musculus with 6 samples.

Results

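The axon guidance ligands and receptors described here were the 68 genes, of 55401 in the count files, whose symbols name a semaphorin, plexin, neuropilin, Slit, Robo, netrin, Unc5 receptor, ephrin or Eph receptor. They comprised 35 ligands (20 semaphorins, 3 Slits, 4 netrins and 8 ephrins) and 33 receptors (9 plexins, 2 neuropilins, 4 Robos, 4 Unc5 receptors and 14 Eph receptors). Their RNA was measured by RNA-seq in subcutaneous white adipose tissue (scWAT) of 8-week-old male mice, with 3 libraries from YT-FF mice and 3 from YT-AKO mice, to ask how deletion of Yap and Taz in fat changes gene expression. YT-FF mice carried floxed Yap and Taz alleles without Cre and are given as WT in the labels. YT-AKO mice carried Yapfl/fl/Tazfl/fl together with AdipoqCre, in which the adiponectin promoter drives Cre in mature adipocytes, so that the vessels, nerves, immune cells and progenitors of the pad keep both genes. Whole tissue was sequenced, and therefore fewer cells of a type and less RNA per cell cannot be told apart.

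Axon guidance cues are secreted or membrane-bound proteins that attract or repel growing axons, and the same pairs of ligand and receptor steer blood vessels and migrating immune cells. Semaphorins signal through plexins, with neuropilins as co-receptors for most of the secreted class 3 members. Slits bind Robos, netrins bind Dcc and Unc5 receptors, and ephrins on one cell bind Eph receptor tyrosine kinases on its neighbour, with signals running in both directions. Fat depots are entered by sympathetic axons that run along vessels, so these families are found there in adipose, vascular, immune and glial cells.

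Each library held between 17740987 and 21838493 counts. A count of 3, used as the detection floor, corresponded to 0.137 to 0.169 CPM (counts scaled to the library's size), and this floor covers counting error only. Yap1 was lower in the libraries labelled YT-AKO, at 32.7 CPM ± 4.53 against 64.3 ± 6.34 (SD, n = 3; log2 fold change -0.98, edgeR adjusted p = 0.0179). Wwtr1, the gene that encodes TAZ, was higher, at 156 CPM ± 21.5 against 84.1 ± 12.7 (log2 fold change 0.89, edgeR adjusted p = 0.0220). At the level of RNA this goes against the label. A count per gene does not separate the floxed exons from the rest, so neither value tests the deletion. By immunoblot, the paper reported a clear drop of YAP and TAZ protein in scWAT of YT-AKO mice. Because of the Wwtr1 values, each direction below is stated for the libraries labelled YT-AKO against those labelled YT-FF. YT-AKO replicate 2 stood apart from the rest, with Spearman correlations to the other libraries of 0.881 to 0.952, whereas the correlations among the other 5 libraries were 0.9485 or higher. The defining adipocyte markers were present in every library, and 4 of 10 were higher in YT-AKO (Fabp4, Lipe, Pnpla2 and Cfd), none lower. Their summed level was 19771 to 25868 CPM in YT-FF and 41596 to 85688 CPM in YT-AKO. Much of that difference lay in Cfd and Fabp4, with means of 5538 and 5205 CPM in YT-FF and 28940 and 13200 CPM in YT-AKO. Adipoq, Plin1, Cidec, Lep and Plin4 overlapped between the groups.

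The guidance genes were expressed over a wide range in scWAT. On the TPM scale, which divides by summed exon length and allows levels to be compared between genes, 54 of the 68 had a mean of at least 1 TPM in YT-FF, 26 had at least 10 TPM and 12 had at least 30 TPM. In YT-AKO these numbers were 43, 18 and 2. The most abundant members in YT-FF were Sema4a at 68.3 TPM ± 11.8, Plxnd1 at 66.8 ± 10.4, Slit3 at 58.9 ± 4.81, Nrp1 at 47.8 ± 6.50 and Sema4d at 43.6 ± 8.05 (SD, n = 3). The ranges of Sema4a, Plxnd1 and Slit3 overlapped within 1 SD, so their order was not resolved. In YT-AKO the order was Plxnd1 at 46.8 TPM ± 19.7, Sema4a at 40.7 ± 6.95, Nrp1 at 29.9 ± 2.92 and Robo4 at 27.5 ± 5.56, and the ranges of 1 SD overlapped between neighbours except for Sema4a and Nrp1. There Slit3 ranked 9 at 23.8 ± 9.66 and Sema4d ranked 16 at 15.6 ± 3.92. The summed TPM of all 68 genes was 878.5 to 1012 in YT-FF and 370.8 to 644.2 in YT-AKO, with the lowest value in YT-AKO replicate 2. TPM depends on the other genes of the library and on length. The same sum on the CPM scale, normalised by trimmed mean of M values (TMM), was 1510 to 1637 against 1256 to 1399, a smaller difference in which the groups also did not overlap.

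**Figure D1:**
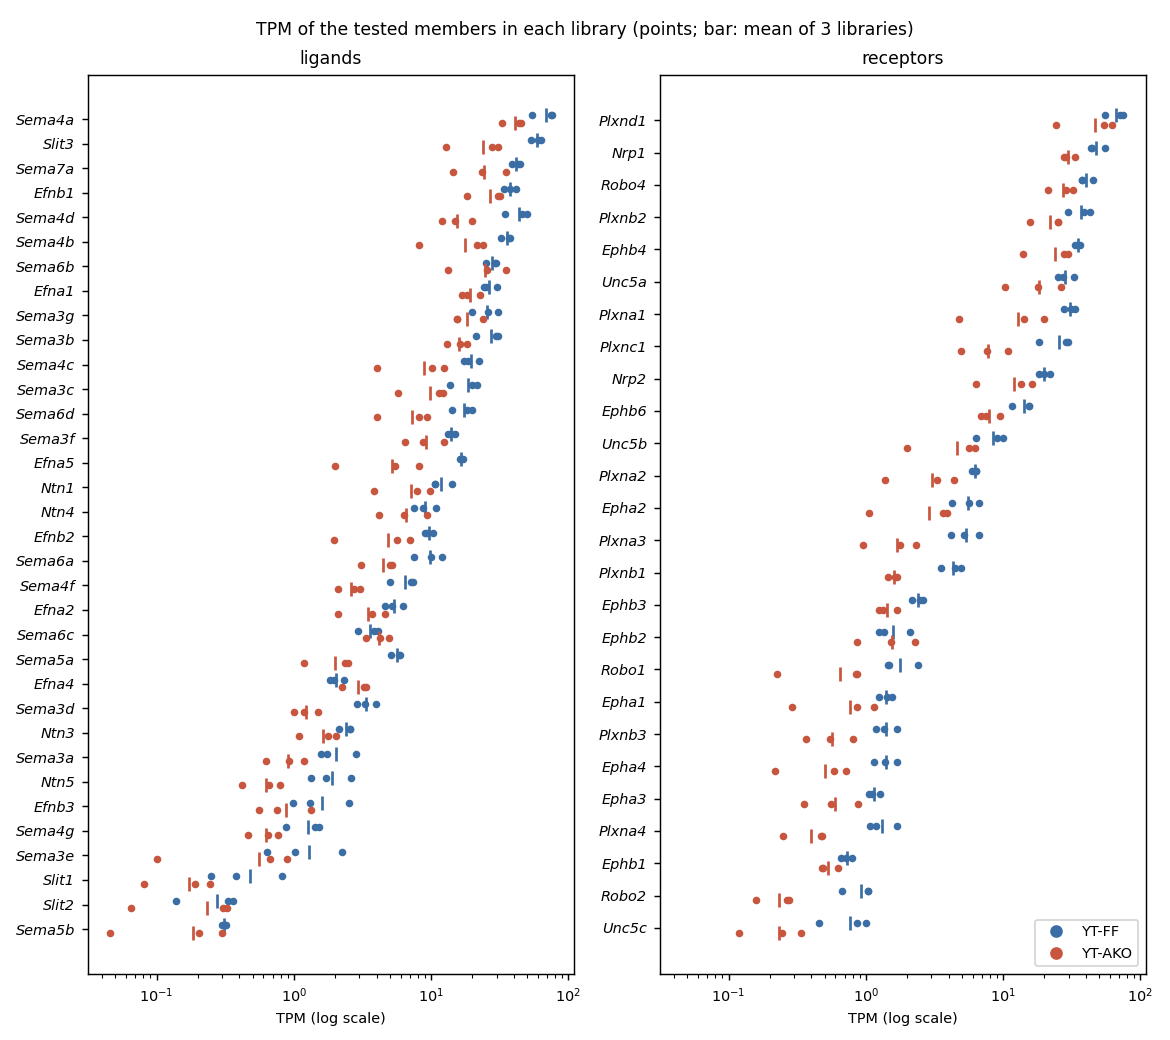
TPM (log scale) of the 60 tested guidance genes in each of the 6 libraries, ligands on the left and receptors on the right, ordered by mean level (blue, YT-FF; red, YT-AKO; bar, mean of 3). Sema4a, Slit3 and Plxnd1 top the 2 panels, and YT-AKO means lie below YT-FF means for all genes but Sema6c and Efna4.

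Of the 68 genes, 60 had enough counts to be tested and 8 did not, namely Efna3, Robo3, Unc5d, Epha5, Epha6, Epha7, Epha8 and Epha10. Unc5d had 0 counts in all 6 libraries, and the largest count among the other untested genes was 15, for Epha7 in YT-AKO replicate 1. At an edgeR adjusted p under 0.05 over all 16807 genes tested, 8 guidance genes were lower in YT-AKO, where the background was 9.01% of all genes tested, and 1 was higher, where the background was 12.6%. The 8 lower genes were Robo2, Plxna4, Plxnc1, Plxna3, Sema5a, Sema4d, Slit3 and Sema6d, and the higher gene was Sema6c. The study used DESeq2 and took genes with an adjusted p below 0.01 and a log2 fold change above 1 as upregulated. These stricter thresholds were applied here in both directions. With them DESeq2 called 4 guidance genes, namely Efna5, Plxna3, Plxnc1 and Robo2, all lower, with a background of 11.4% of all genes. By edgeR, which the study did not use, no guidance gene was called, with a background of 0.125% (21 genes). An unadjusted edgeR p under 0.05 was found for 16 of the 60 genes against 40.8% of all tested genes, and 14 of the 16 were in the lower direction (background 18.6%). In 20 of the 60 genes every YT-AKO library lay below every YT-FF library on the CPM scale (background 25.8%), in 2 every YT-AKO library lay above (Sema6c and Efna4, background 25.7%), and in 38 the groups overlapped. The counts of members thus sat near the background for the lower direction and under it for the higher one. The median log2 fold change of the 60 genes was -0.30 against -0.02 for all tested genes, and 44 of 60 (73.3%) lay below 0 against 51.0% of all tested genes.

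**Figure D2:**
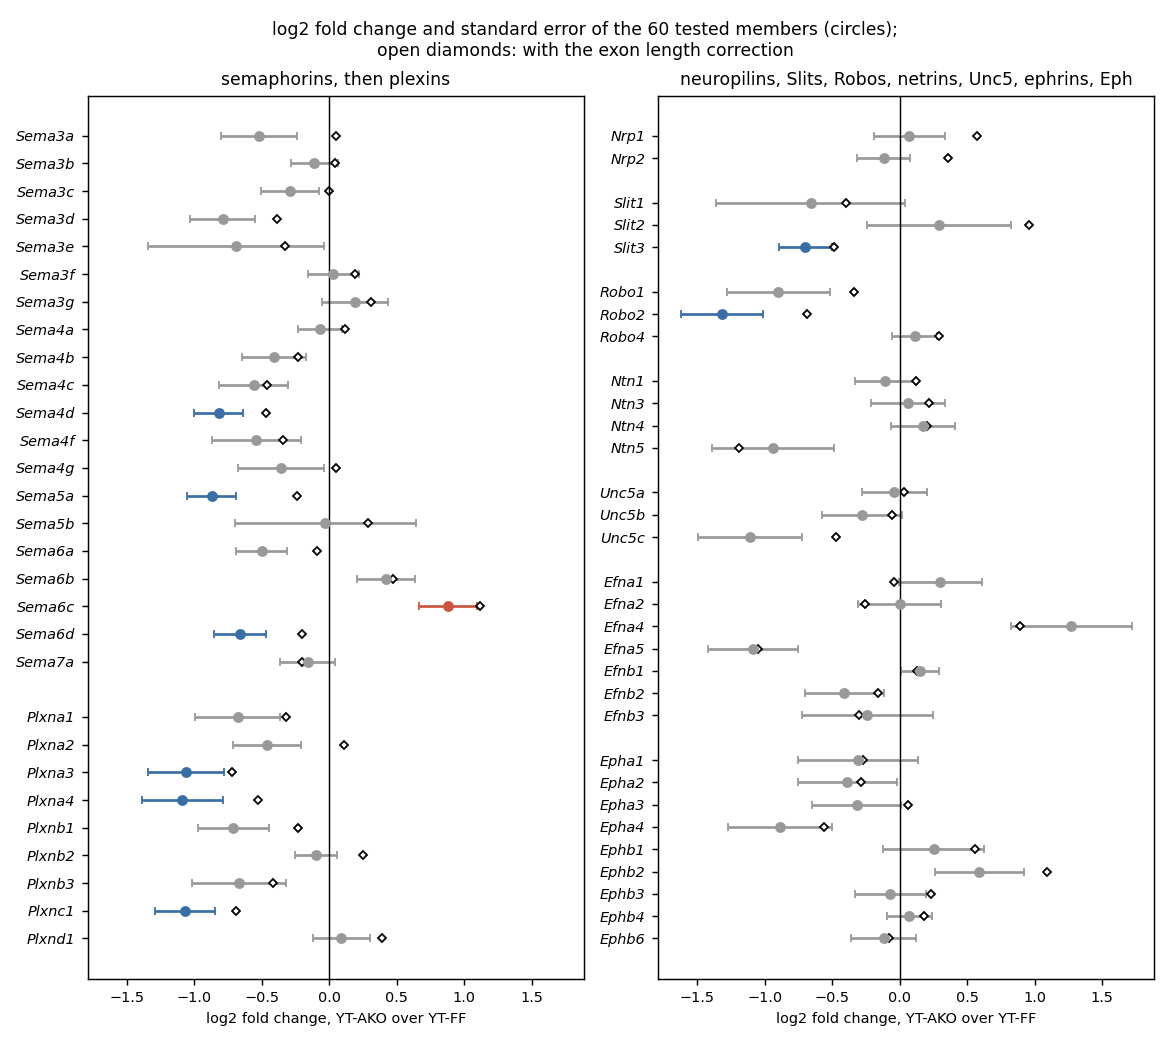
Log2 fold change (YT-AKO over YT-FF) with its standard error for each of the 60 tested guidance genes, grouped by family (circles; blue, lower; red, higher; grey, adjusted p of 0.05 or more), and the value after exon length correction (open diamonds). Plexins and class 4 semaphorins lie mostly left of 0, Sema6c is the red point at 0.88, and most diamonds lie to the right of their circles.

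Exon length moved with these differences. Across all tested genes the log2 fold change fell with log2 summed exon length (Spearman correlation -0.376 over 16807 genes of the same 6 libraries), and across the 60 guidance genes the correlation was -0.421. The guidance genes are long, with a median exon length of 6567 bases against 3888 for all tested genes, and 32 of the 60 belonged to the longest quartile (6271 to 123179 bases). In that quartile 21.5% of all genes were lower, 3.12% were higher and the median log2 fold change was -0.39, while its 32 guidance genes had a median of -0.51 and included 7 of the 8 lower genes. The remaining lower gene, Slit3, has 6067 exonic bases. After a correction for exon length in each library, 0 guidance genes were lower (background 4.14%) and 1 was higher (Sema6c, background 9.59%). The median of the 60 genes was then -0.07 against 0.07 for all tested genes, and 33 of 60 lay below 0, while 12 of the 60 had an unadjusted p under 0.05 against 35.5% of all tested genes. The part of RNA quality or library preparation in this relation was not tested.

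**Figure D3:**
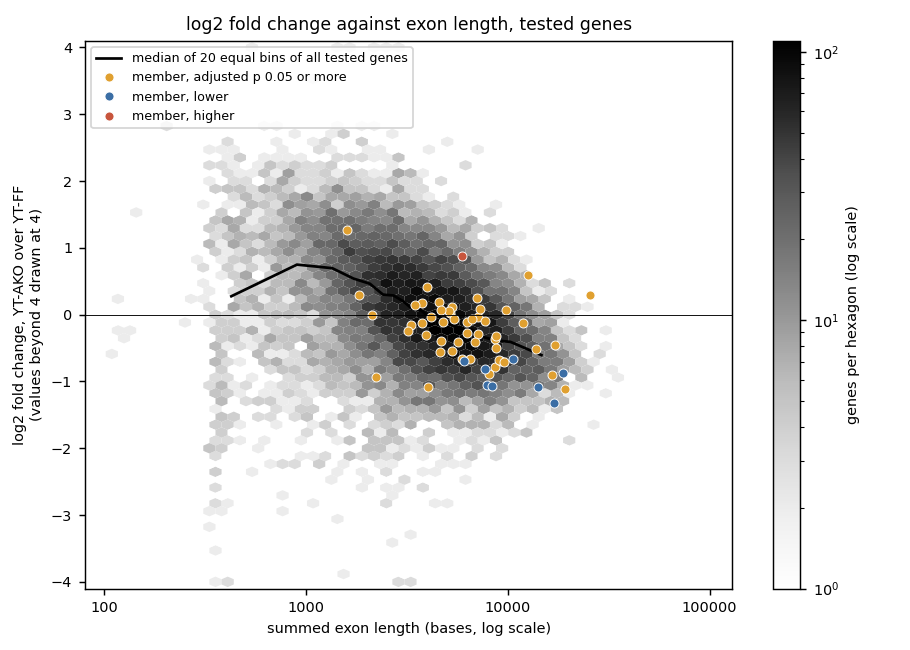
Log2 fold change (YT-AKO over YT-FF) against summed exon length (log scale) for the 16807 tested genes (grey hexagons, darker where more genes fall; black line, median of 20 equal bins) and the 60 guidance genes (blue, lower; red, higher; orange, not called). The median line runs from above 0 for short genes to below 0 for long ones, and the lower guidance genes sit between 6067 and 18686 bases.

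The calls also depended on single libraries. Without YT-FF replicate 1 none of the 9 genes passed, 11 guidance genes had an unadjusted p under 0.05 (27.1% of all genes), and edgeR called 0 of 17183 genes overall. Without YT-FF replicate 2 none of the 9 passed either, 10 had an unadjusted p under 0.05 (26.3% of all genes), and edgeR called 2 genes overall. Without YT-FF replicate 3 the calls were Plxnc1, Robo2 and Sema4d, all lower, with a background of 3.02% lower and 4.03% higher. Without YT-AKO replicate 1 they were these 3 together with Sema5a and Sema6d, all lower, with a background of 8.24% lower and 12.7% higher. Without YT-AKO replicate 3, 6 genes were lower, namely Efna5, Plxna1, Plxna3, Plxnc1, Sema5a and Slit3, and Sema6c was higher, with a background of 5.12% lower and 10.2% higher. Without YT-AKO replicate 2, the library that stood apart, all 9 calls held and 5 were added, for 12 lower and 2 higher genes. Calls over all genes then also rose, to 14% lower and 16.9% higher. The log2 fold changes of the 9 genes kept their sign in all 18 alternatives that were run. These genes were picked from the same libraries and their groups were separate, so leaving out 1 library could hardly turn a sign.

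**Figure D4:**
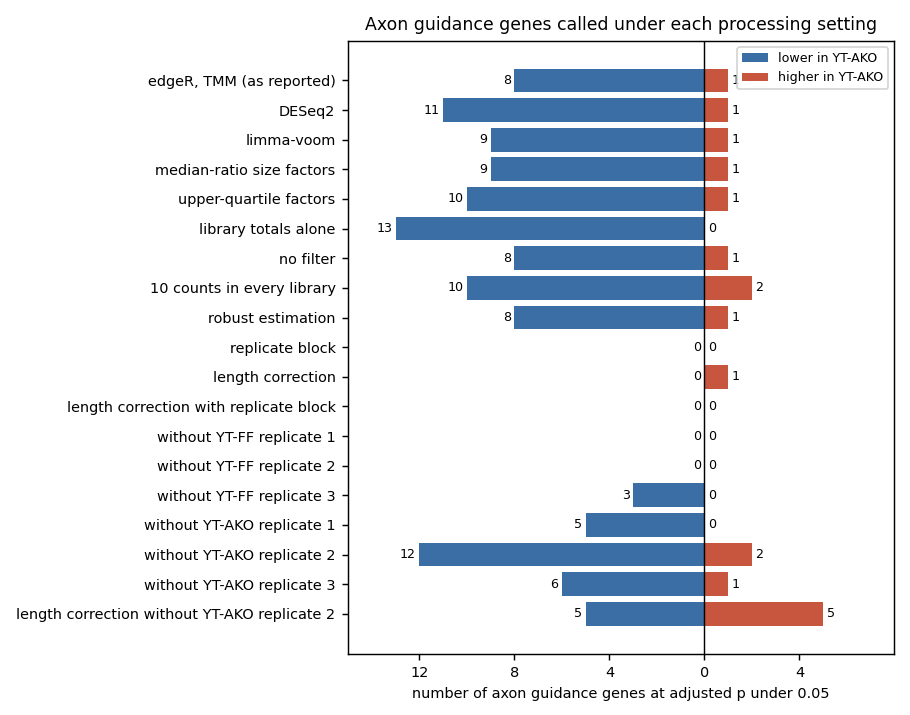
Number of guidance genes with an adjusted p under 0.05 under each processing setting (blue, lower in YT-AKO, drawn to the left; red, higher, drawn to the right). The reported fit gave 8 lower and 1 higher, leaving out YT-FF replicate 1 or 2 gave 0 and 0, and leaving out YT-AKO replicate 2 gave 12 and 2.

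YAP and TAZ can act on genes through TEAD factors, whose core site is read as GGAATG, so the promoters of the called genes were searched for it. The paper reported that YAP and TAZ repress S100b in beige adipocytes without binding TEADs. The search thus covers the TEAD route only. Promoters from RefSeq (GRCm38.p6, the mm10 build of the count files) span 250 bases before to 50 bases after a transcription start and were found for 59 of the 68 genes, with 75 promoters in all. GGAATG or its reverse complement CATTCC was present in 9 of these 75 (12%), against 14.7% of all 32851 promoters of the same length. Among the 14 promoters of 8 called genes 1 held it, an upstream start of Robo2 at chr16:75092721-75093020 on the minus strand, where CATTCC begins 43 bases past the start. This start lies outside the Robo2 gene model that was counted (chr16:73891839-74411825), whose own start at chr16:74411776-74412075 held no match, nor did a further upstream Robo2 start at chr16:75447244-75447543 that is not shown. A match is a description of the letters and not a binding site. The sequences below are 5' to 3' on the strand of the gene and show the called gene with the largest fold (Robo2, with the matched and the counted start), the most abundant called gene (Slit3, chr11:35121206-35121505, plus strand) and the higher gene (Sema6c, chr3:95160170-95160469, plus strand). Capitals mark the searched letters, and sequences without capitals held none.
Robo2 upstream start: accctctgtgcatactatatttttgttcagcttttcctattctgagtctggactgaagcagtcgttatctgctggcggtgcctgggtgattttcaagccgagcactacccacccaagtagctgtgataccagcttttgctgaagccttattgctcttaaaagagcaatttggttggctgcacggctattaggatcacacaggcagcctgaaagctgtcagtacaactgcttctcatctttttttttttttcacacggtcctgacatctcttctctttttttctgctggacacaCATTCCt
Robo2 counted start: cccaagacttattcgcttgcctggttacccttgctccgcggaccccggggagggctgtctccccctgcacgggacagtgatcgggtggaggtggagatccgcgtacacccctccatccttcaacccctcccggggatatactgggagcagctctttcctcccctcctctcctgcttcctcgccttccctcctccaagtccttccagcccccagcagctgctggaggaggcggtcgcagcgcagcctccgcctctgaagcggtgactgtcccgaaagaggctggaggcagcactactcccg
Slit3: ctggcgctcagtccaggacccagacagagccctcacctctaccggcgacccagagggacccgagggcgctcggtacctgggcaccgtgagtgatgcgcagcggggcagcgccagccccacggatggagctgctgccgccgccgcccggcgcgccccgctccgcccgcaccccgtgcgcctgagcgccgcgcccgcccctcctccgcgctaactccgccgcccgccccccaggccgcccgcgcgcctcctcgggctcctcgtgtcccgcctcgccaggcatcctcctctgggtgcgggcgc
Sema6c: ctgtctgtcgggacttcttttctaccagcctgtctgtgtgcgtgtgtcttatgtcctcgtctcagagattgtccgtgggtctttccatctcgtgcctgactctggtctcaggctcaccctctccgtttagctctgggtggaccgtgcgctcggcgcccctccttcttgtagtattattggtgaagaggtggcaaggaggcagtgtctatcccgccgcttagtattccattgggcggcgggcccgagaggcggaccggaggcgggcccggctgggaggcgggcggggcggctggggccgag
The Robo2 upstream start had 45% G and C and 5 CpG dinucleotides, the counted Robo2 start 65% and 17, the Slit3 promoter 78.3% and 41, and the Sema6c promoter 62.7% and 23. The median promoter of the guidance genes had 64.3% G and C and 19 CpG against 52.7% and 7 for all promoters. 

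Semaphorins are the largest family of ligands, secreted in class 3 and bound to the membrane in the other vertebrate classes. All 20 were tested, 3 were lower (Sema5a, Sema4d and Sema6d), 1 was higher (Sema6c) and 16 did not pass. Their median log2 fold change was -0.38, stayed below 0 in all alternatives and was -0.05 after length correction. All 6 class 4 genes had values below 0, with 1 call and a median of -0.48, and after length correction 4 of 6 did. The class 3 median was -0.29, which turned to 0.04 after length correction.

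Sema4d, known for its expression on lymphocytes and as the ligand of plexin B1, is encoded at chr13:51685529-51793747. It measured 92.5, 97.2 and 73.6 CPM in YT-FF and 54.5, 52.7 and 42.0 CPM in YT-AKO. Every YT-AKO library lay below every YT-FF library, with log2 fold change -0.82 (SE 0.179, edgeR adjusted p = 0.0247), or -0.47 after length correction (edgeR adjusted p = 0.124). Of the B cell markers 5 of 8 were lower and none higher, with a summed level of 1267 to 1530 CPM in YT-FF and 741 to 1055 CPM in YT-AKO. Cd79a, Cd79b and Pax5 were not called and overlapped between the groups. In YT-AKO replicate 2, Cd79a (241 CPM) and Cd79b (284 CPM) lay above every YT-FF library. T cell markers had 2 of 8 lower and overlapping sums of 408 to 621 and 348 to 764 CPM. No B or T cell marker had 0 counts throughout, and the part of lymphocytes in the Sema4d difference was not tested.

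Sema5a, a membrane semaphorin with thrombospondin repeats, lies at chr15:32244810-32696341. Its levels were 24.8, 27.9 and 30.2 CPM in YT-FF and 15.9, 12.7 and 17.0 CPM in YT-AKO, with no overlap. The log2 fold change was -0.87 (SE 0.182, edgeR adjusted p = 0.0233). With 18686 exonic bases it was the longest called gene, and the length-corrected value was -0.24 (edgeR adjusted p = 0.357).

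Sema6c and Sema6d are close relatives, both transmembrane ligands of A-type plexins, and were called in opposite directions. Sema6d (chr2:124089969-124667770) measured 50, 53.2 and 41.5 CPM in YT-FF and 35.6, 24.3 and 31.9 CPM in YT-AKO, with log2 fold change -0.66 (SE 0.191, edgeR adjusted p = 0.0459). Sema6c (chr3:95160457-95174024) measured 6.31, 5.76 and 4.79 CPM in YT-FF and 10.5, 11.4 and 9.22 CPM in YT-AKO, with log2 fold change 0.88 (SE 0.218, edgeR adjusted p = 0.0314). Both pairs of groups were separate. After length correction Sema6d was -0.20 (edgeR adjusted p = 0.318) and Sema6c was 1.12 (edgeR adjusted p = 0.0300). The ratio of Sema6c to Sema6d in TPM, which compares the genes within each library, was 0.224, 0.192 and 0.205 in YT-FF and 0.523, 0.838 and 0.515 in YT-AKO. Sema6d thus stayed the more abundant of the pair per length in every library. Their exon lengths are 5935 bases for Sema6c and 10559 for Sema6d, so the ratio moves with any effect of length.

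The secreted semaphorins with reported roles in nerves and vessels did not pass the test. Sema3a, a repellent of sympathetic axons, measured 5.67, 9.93 and 6.64 CPM in YT-FF and 5.93, 4.95 and 4.67 CPM in YT-AKO (log2 fold change -0.52, SE 0.281, edgeR adjusted p = 0.202), and the groups overlapped. Sema3c measured 25.7, 39.3 and 39.1 CPM against 31.5, 23.4 and 29.9 CPM (log2 fold change -0.29, SE 0.217, edgeR adjusted p = 0.334). Sema3e, the ligand of plexin D1, was low at 2.47, 5.23 and 1.65 CPM against 2.96, 0.531 and 2.31 CPM (log2 fold change -0.69, SE 0.653, edgeR adjusted p = 0.451). The Sema3e counts were 9 to 119 per library. Sema3d, singled out after its values were seen, lay just outside the threshold, with 6.48, 8.57 and 7.88 CPM in YT-FF and 4.59, 4.89 and 3.72 CPM in YT-AKO and no overlap (log2 fold change -0.79, SE 0.241, edgeR adjusted p = 0.0510). Its length-corrected value was -0.39 (edgeR adjusted p = 0.322). Sema4a, the most abundant ligand, measured 106, 102 and 81.9 CPM in YT-FF and 88.2, 101 and 87.3 CPM in YT-AKO (log2 fold change -0.07, SE 0.163, edgeR adjusted p = 0.764).

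Plexins, the signalling receptors of semaphorins, are large transmembrane proteins with a cytoplasmic domain that acts on Rap and Ras GTPases. All 9 were tested, 3 were lower (Plxna4, Plxnc1 and Plxna3) and none was higher, and 8 of 9 values lay below 0. The median was -0.68, with a range of -0.99 to -0.32 over the alternatives, and it was -0.32 after length correction, when 6 of 9 lay below 0. The 4 A-type plexins, which are the receptors of class 3 and class 6 semaphorins, all lay below 0 with a median of -0.87, and 3 of 4 did after length correction.

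Plxna4 (chr6:32144268-32588192), known from sympathetic and sensory neurons, measured 6.14, 3.82 and 4.63 CPM in YT-FF and 2.38, 2.00 and 2.48 CPM in YT-AKO. The log2 fold change was -1.09 (SE 0.299, edgeR adjusted p = 0.0404), or -0.53 after length correction (edgeR adjusted p = 0.232). Plxna3 (chrX:74329066-74344689), a co-receptor of neuropilins, measured 13.7, 8.35 and 11.3 CPM against 5.0, 4.25 and 6.74 CPM, with log2 fold change -1.06 (SE 0.2796, edgeR adjusted p = 0.0368), or -0.72 after correction (edgeR adjusted p = 0.0938). Plxna3 and Plxna4 were each separate between the groups. Plxna1, the most abundant A-type plexin, measured 78.8, 71.5 and 69.5 CPM against 46.3, 24.8 and 65.7 CPM, and its spread in YT-AKO was wide (log2 fold change -0.68, SE 0.316, edgeR adjusted p = 0.142). Its length-corrected value was -0.32 (edgeR adjusted p = 0.397). It shares 10.7% of its exonic bases with the overlapping gene Gm26811, where unstranded counting cannot assign reads. Plxna4 shares 0.78% with Plxna4os3.

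Plxnc1 (chr10:94790866-94944835), the receptor of semaphorin 7A and found on myeloid cells, lymphocytes and neurons, measured 62.0, 62.4 and 42.0 CPM in YT-FF and 32.7, 23.5 and 23.3 CPM in YT-AKO. The groups were separate, with log2 fold change -1.07 (SE 0.222, edgeR adjusted p = 0.0230). After length correction the value was -0.69 (edgeR adjusted p = 0.0524), and without YT-AKO replicate 2 Plxnc1 was called with that correction too. The same fit also called Sema4d, Efna5, Plxnb1 and Sema4f lower, and Sema6c, Sema6b, Nrp2, Plxnd1 and Ephb2 higher. Over all genes it called 1441 lower and 2651 higher of 17350. Plxnc1 shares 1.38% of its exonic bases with Gm48718. Of 10 macrophage markers 3 were higher (C1qa, C1qb and Fcgr1) and none lower, with a sum of 613 to 678 CPM in YT-FF and 987 to 1211 CPM in YT-AKO. Much of that difference lay in C1qa and C1qb, with means of 97.1 and 97.7 CPM in YT-FF and 322 and 254 CPM in YT-AKO. The markers that were not called, among them Csf1r, Adgre1, Cd68 and Mrc1, overlapped between the groups. B cell markers are given beside Sema4d. The part of these cells in the Plxnc1 difference was not tested. Plxnb1, the receptor of Sema4d, had 12.2, 10.8 and 9.42 CPM against 5.81, 8.90 and 5.14 CPM, with no overlap, and missed the threshold (log2 fold change -0.71, SE 0.266, edgeR adjusted p = 0.0875). Its length-corrected value in all 6 libraries was -0.23 (edgeR adjusted p = 0.6355).

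**Figure D5:**
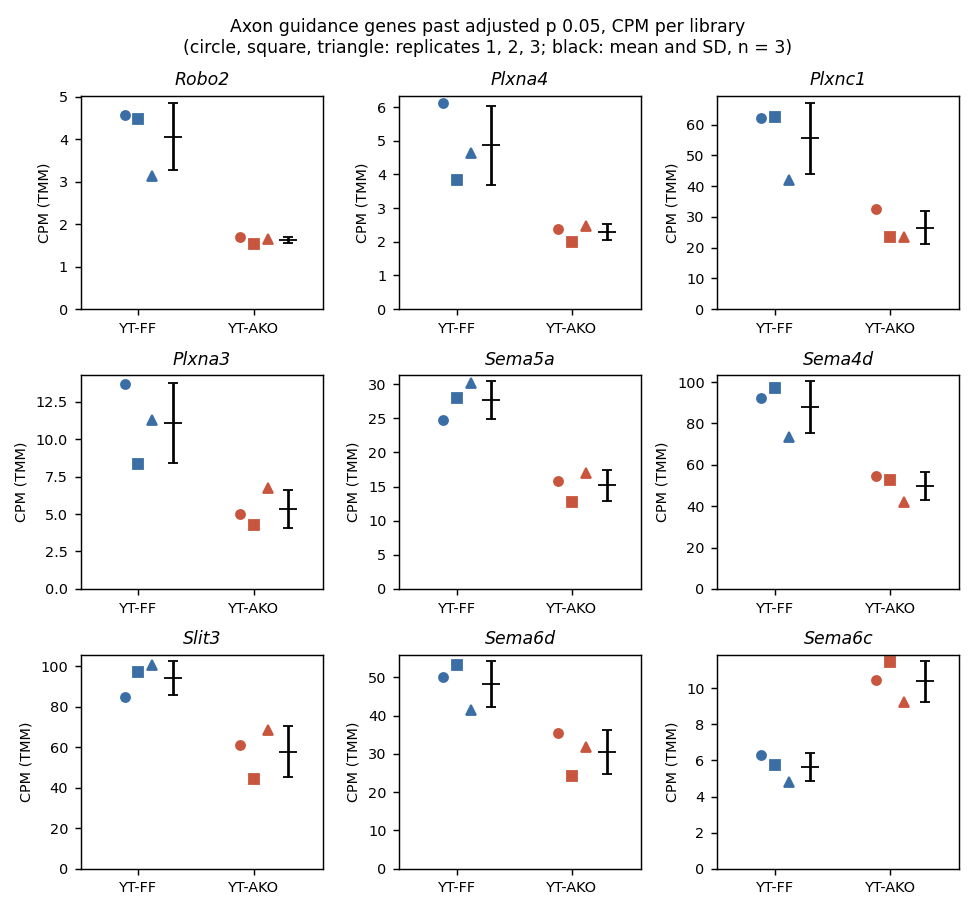
CPM (TMM-normalised, linear axes from 0) of the 9 guidance genes with an adjusted p under 0.05 in each library (blue, YT-FF; red, YT-AKO; circle, square and triangle, replicates 1 to 3; black, mean and SD, n = 3). In each panel the 2 groups are separate, with YT-AKO below YT-FF for all genes but Sema6c.

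The vascular members of this system did not pass. Plxnd1, the plexin of endothelium, measured 141, 132 and 111 CPM in YT-FF and 142, 102 and 166 CPM in YT-AKO (log2 fold change 0.09, SE 0.212, edgeR adjusted p = 0.767). Nrp1, the co-receptor for class 3 semaphorins and vascular endothelial growth factor, measured 111, 137 and 121 CPM against 100.5, 185 and 99.9 CPM (log2 fold change 0.07, SE 0.264, edgeR adjusted p = 0.867), with the high value in YT-AKO replicate 2. Endothelial markers gave overlapping sums of 1126 to 1191 CPM in YT-FF and 1039 to 1199 CPM in YT-AKO, with 1 of 14 lower (Kdr) and none higher. The ratio of Plxnd1 to Plxnc1 in TPM was 2.60, 2.42 and 3.03 in YT-FF and 4.97, 4.94 and 8.14 in YT-AKO. Per length, Plxnd1 exceeded Plxnc1 in all 6 libraries.

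Slits are large secreted proteins that repel axons through Robo receptors. Slit3, at chr11:35121224-35708507, was by far the most abundant Slit, and its promoter sequence is given above. It measured 84.9, 97.2 and 100.4 CPM in YT-FF and 60.8, 44.1 and 68.4 CPM in YT-AKO, with no overlap. Its log2 fold change was -0.70 (SE 0.195, edgeR adjusted p = 0.0407), or -0.49 after length correction (edgeR adjusted p = 0.0746). Slit2, a ligand with reported effects on fat thermogenesis, was low, at 2.17, 2.33 and 0.978 CPM against 2.96, 0.944 and 2.84 CPM (log2 fold change 0.29, SE 0.534, edgeR adjusted p = 0.701). The 2 lowest Slit2 values came from 1 library of each group. The ratio of Slit3 to Slit2 in TPM, 164, 175 and 430 in YT-FF and 86.0, 196 and 101 in YT-AKO, overlapped between the groups. Fibroblast and progenitor markers, from cells that express Slits, had 3 of 11 higher and 1 lower, with sums of 4487 to 5625 and 5046 to 7925 CPM, and mural markers had none called of 9, with sums of 609 to 648 and 515 to 595 CPM. Their part in the Slit3 difference was not tested.

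Robo2 had the largest fold among the called genes. It was low, as the YT-FF libraries held 107, 102 and 61 of its counts and the YT-AKO libraries 29, 26 and 28. These correspond to 4.56, 4.48 and 3.14 CPM against 1.69, 1.53 and 1.66 CPM, all above the floor and with no overlap. The log2 fold change was -1.32 (SE 0.304, edgeR adjusted p = 0.0271), or -0.69 after length correction (edgeR adjusted p = 0.137). Its exons sum to 16983 bases. Robo1, also a neuronal Robo, measured 6.35, 10.1 and 6.59 CPM against 5.0, 2.12 and 5.20 CPM, with no overlap and no call (log2 fold change -0.90, SE 0.383, edgeR adjusted p = 0.119). Its length-corrected value was -0.34 (edgeR adjusted p = 0.464). Robo4, the endothelial Robo, measured 51.5, 50.5 and 66.8 CPM against 61.4, 64.7 and 56.0 CPM (log2 fold change 0.11, SE 0.167, edgeR adjusted p = 0.646). Per length, Robo4 exceeded Robo2 in every library, with a ratio of 36.2, 36.1 and 68.2 in YT-FF and 117, 135 and 108 in YT-AKO. The exons of Robo4 sum to 5302 bases against 16983 for Robo2, so this ratio also moves with any effect of length. Nerve markers were measured beside these genes. Schwann cell markers had 1 of 11 lower (Scn7a) and none higher, with sums of 701 to 746 CPM in YT-FF and 520 to 613 CPM in YT-AKO. Of 13 sympathetic neuron markers 4 could be tested, 1 was higher (Uchl1) and none lower. Their sums were low, at 11.2 to 12.1 CPM in YT-FF and 13.5 to 21.6 CPM in YT-AKO, and the defining genes Th and Dbh had 0 counts in all libraries. By whole-mount staining of TH protein, the paper reported much denser sympathetic innervation in scWAT of YT-AKO mice. Th RNA had 0 counts in the same tissue, so these RNA sums cannot be read as a measure of the axons. The part of nerve cells in the Robo2 difference was not tested.

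Netrins are secreted cues and Unc5 genes encode their repulsive receptors. None of the 7 tested genes passed, of which 4 were netrins and 3 Unc5 receptors. Netrin values ran from -0.94 to 0.17 and Unc5 values from -1.11 to -0.04. Ntn1 measured 17.4, 22.4 and 18.5 CPM in YT-FF and 22.0, 13.8 and 18.1 CPM in YT-AKO (log2 fold change -0.11, SE 0.220, edgeR adjusted p = 0.727). Unc5a, the most abundant of its family, measured 27.1, 28.6 and 38.3 CPM against 26.9, 24.4 and 40.4 CPM (log2 fold change -0.04, SE 0.239, edgeR adjusted p = 0.918). Unc5b, found in endothelium and macrophages, measured 14.6, 15.8 and 11.0 CPM against 12.7, 7.08 and 14.2 CPM (log2 fold change -0.28, SE 0.294, edgeR adjusted p = 0.497). The values of Ntn1, Unc5a and Unc5b overlapped between the groups. Unc5c, named after its values were seen, was separate between the groups, with 4.26, 4.83 and 2.42 CPM in YT-FF and 2.33, 1.30 and 1.71 CPM in YT-AKO, by a narrow margin, and was not called (log2 fold change -1.11, SE 0.389, edgeR adjusted p = 0.0730). Its length-corrected value was -0.47 (edgeR adjusted p = 0.332). Ntn5, also named after its values were seen, was separate too, at 1.49, 0.967 and 0.824 CPM against 0.523, 0.531 and 0.650 CPM, and was not called (log2 fold change -0.94, SE 0.454, edgeR adjusted p = 0.157). Its length-corrected value was -1.19 (edgeR adjusted p = 0.109). It shares 23.4% of its exonic bases with Sec1.

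Ephrins are tethered to the membrane by a lipid anchor in the A class and by a transmembrane segment in the B class, and bind Eph receptors of the matching class with some crossing. None of the 7 tested ephrins and none of the 9 tested Eph receptors passed in edgeR as reported. Ephrin values ran from -1.09 to 1.27 and Eph values from -0.89 to 0.59. The extremes among ephrins were both A class and were named after their values were seen. Efna5 measured 16.9, 16.7 and 19.1 CPM in YT-FF and 7.91, 4.60 and 12.2 CPM in YT-AKO, with no overlap, and missed the threshold (log2 fold change -1.09, SE 0.332, edgeR adjusted p = 0.0513). It was called lower in 10 of 18 alternatives, among them DESeq2 (log2 fold change -1.11, adjusted p = 0.00988) and limma-voom (-1.20, adjusted p = 0.0351), and its adjusted p ran from 0.00988 to 0.148 over them. Its exons sum to 4032 bases, near the median of 3888 of all tested genes, and the length-corrected value was -1.05 (edgeR adjusted p = 0.0565). Efna4 measured 0.810, 0.747 and 1.03 CPM against 1.28, 3.07 and 1.89 CPM, from counts of 17 to 52, with all YT-AKO libraries above (log2 fold change 1.27, SE 0.449, edgeR adjusted p = 0.0752). Its length-corrected value was 0.89 (edgeR adjusted p = 0.169). It shares 10.5% of its exonic bases with 4731419I09Rik, where reads cannot be assigned.

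The abundant ephrins and Eph receptors were close between the groups. Efnb1 measured 33.9, 36.2 and 32.6 CPM in YT-FF and 39.1, 35.8 and 38.8 CPM in YT-AKO (log2 fold change 0.15, SE 0.139, edgeR adjusted p = 0.452). Efna1 measured 11.98, 13.97 and 12.3 CPM against 10.9, 23.9 and 12.3 CPM, with the high value in YT-AKO replicate 2 (log2 fold change 0.30, SE 0.308, edgeR adjusted p = 0.485). Ephb4, the venous endothelial receptor, was the most abundant Eph at 40.1, 41.3 and 46.8 CPM against 46.6, 37.2 and 50.4 CPM (log2 fold change 0.07, SE 0.168, edgeR adjusted p = 0.791). Ephb6, a receptor without kinase activity, measured 15.2, 14.7 and 12.2 CPM against 9.36, 16.1 and 13.1 CPM (log2 fold change -0.12, SE 0.240, edgeR adjusted p = 0.717). Epha4, a receptor that binds both ephrin classes, was separate between the groups, at 3.54, 2.33 and 3.09 CPM against 1.69, 1.003 and 2.13 CPM, and was not called (log2 fold change -0.89, SE 0.386, edgeR adjusted p = 0.123). Its length-corrected value was -0.56 (edgeR adjusted p = 0.287). The 4 tested EphA genes all lay below 0, with a median of -0.35, while 2 of the 5 EphB genes did, with a median of 0.07. The difference between EphA and EphB was not tested, and the EphA median turned to 0.01 with length correction and without YT-AKO replicate 2.

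Lists of genes that work with these families were examined beside them, where the background was 12.6% higher and 9.01% lower. Of 22 tested other guidance ligands and receptors 1 was lower and none higher, with a median log2 fold change of -0.51. It was Cd72, a B cell receptor for Sema4d, at 31.4 CPM ± 3.65 against 55.5 ± 7.57 (SD, n = 3; log2 fold change -0.82, edgeR adjusted p = 0.0226). Dscam, a netrin receptor, had log2 fold change -1.59 (edgeR adjusted p = 0.0517), and Dcc, the attractive netrin receptor, had 0 counts in all libraries. Of 22 tested genes that relay semaphorin and plexin signals 5 were higher and 4 lower, with a median of -0.33. Rnd1, which binds plexins, was higher (log2 fold change 1.42, edgeR adjusted p = 0.0219), and Farp1, a partner of A-type plexins, was lower (log2 fold change -0.99, edgeR adjusted p = 0.0191). Both were also called after length correction.

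Of 22 tested genes that relay Slit, Robo and netrin signals 4 were lower and none higher, and the median was -0.24. Mycbp2, a large ubiquitin ligase of axons, was at 103 CPM ± 15.7 against 257 ± 16.7 (log2 fold change -1.32, edgeR adjusted p = 0.0165), and -0.68 after length correction (edgeR adjusted p = 0.0273). Ablim1, an actin-binding protein, had log2 fold change -0.75 (edgeR adjusted p = 0.0212), and -0.23 after correction (edgeR adjusted p = 0.319). Of 19 tested genes that relay ephrin and Eph signals 1 was higher and 5 lower, with a median of -0.47. Itsn2, an exchange factor scaffold, had log2 fold change -1.08 (edgeR adjusted p = 0.0185), and -0.54 after correction (edgeR adjusted p = 0.0474). Tns3, a focal adhesion protein, had -0.97 (edgeR adjusted p = 0.0211), and -0.47 after correction (edgeR adjusted p = 0.0776). The medians of the 4 lists were not tested against other genes, and that of all tested genes was -0.02.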

How the data were processed

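The 6 scWAT libraries, 3 of each genotype, were assigned to groups from their titles. Per the labels, the file headers and the study's methods, the authors mapped paired-end reads to mm10 with HISAT2 and counted them with featureCounts (2.0.1) on the exons of GENCODE vM25, with no strand setting. The deposited values are raw counts per gene, not normalised or filtered. Fragments shared by overlapping genes were left out by that counting, which can lower genes with overlapping exons. Symbols were matched for 55141 of 55401 genes, and 260 had none.

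The counts were analysed in R 4.3.3. The test was the quasi-likelihood test of edgeR 4.0.16 on TMM-scaled counts. Low genes were removed by filterByExpr, set to 10 counts and a total of 15, and p-values of the 16807 genes kept were adjusted by Benjamini-Hochberg. Calls used an adjusted p below 0.05, and also the study's limits of 0.01 and a log2 fold change of 1. The study gave these limits for upregulated genes by DESeq2, and here they were applied in both directions. The biological coefficient of variation was 0.288. CPM used the TMM factors, which were 1.07 to 1.16 in YT-FF and 0.777 to 0.955 in YT-AKO. TPM used summed exon lengths. The length correction fitted a spline with 6 degrees of freedom to log exon length in each library. Alternatives were DESeq2 1.42.0, limma-voom (limma 3.58.1), other scalings and filters, robust estimation, a replicate block, the length correction, leaving out each library and, added after seeing the data, the length correction without YT-AKO replicate 2. The scripts were tested on simulated data.

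Members, marker lists and pathway lists were chosen with earlier results of these data known. Values per library are given for members past the adjusted p of 0.05, the 2 most abundant of each of 5 systems and members with a reported role in fat or its nerves, whatever their values. The others, namely Efna5, Sema3d, Unc5c, Efna4, Plxnb1, Epha4, Plxna1 and Ntn5, were chosen after their values were seen. Of the pathway lists the 2 genes with the smallest adjusted p are named. Of the epithelial marker list 2 of 8 genes could be tested and neither was called (sums 4.02 to 5.62 and 4.43 to 6.10 CPM, Krt5 at 0 counts). Of 8 skeletal muscle markers 7 could be tested and 1 was higher (119 to 439 and 210 to 3141 CPM). The high muscle values came from YT-AKO replicate 1, where Myh4 was at 886 CPM against 43.1 and 2.90 CPM in YT-AKO replicates 2 and 3. One pathway list is not reported here. One gene of the ephrin list, Grb4, was not matched.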

Additional observations from a re-analysis of the deposited data

How the results depend on the processing

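The log2 fold changes of the 9 called guidance genes kept their direction under all 18 alternatives, while their adjusted p did not stay under 0.05. The direction was largely set beforehand, because the genes were chosen for their differences in these same libraries. The number of higher genes, 1 as reported, was 0 with library totals alone, 2 with 10 counts required in every library, 0 with the replicate block, 0 with length correction and replicate block, 0 to 2 when 1 library was left out, and 5 with length correction without YT-AKO replicate 2. The number of lower genes, 8 as reported, was 13 with library totals alone, 0 with the replicate block, 0 with length correction, 0 with both, 0 to 12 when 1 library was left out, and 5 with length correction without YT-AKO replicate 2. Calls over all genes moved as well. Of 16807 genes, 1515 were lower and 2121 higher as reported, and 2828 and 1137 with library totals alone. Length correction gave 696 lower and 1612 higher, and 19 and 46 with the replicate block added. With 10 counts in every library, 1733 of 14487 were lower and 2138 higher. Length correction without YT-AKO replicate 2 gave 1441 lower and 2651 higher of 17350. At the study's thresholds DESeq2 called 4 and the fit without a filter 1, against 0. Over all genes, DESeq2 called 1347 higher and 674 lower at those thresholds, against 15 and 6 by edgeR. The cause of these changes was not tested. Library totals alone moved the median of all genes to -0.34 and that of the guidance genes to -0.60. Same-numbered libraries of the 2 groups correlated in their deviations from the group means at 0.12, -0.114 and -0.0899. Not every library correlated best with its own number. All these correlations were small, from -0.135 to 0.154. With 3 libraries per group they cannot decide whether the replicate numbers pair the libraries. The replicate block left 24 higher and 9 lower genes overall.

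Of the 60 guidance genes, 12 changed sign with library totals alone, 13 with length correction, 14 with length correction and replicate block and 12 with length correction without YT-AKO replicate 2. None of them was among the 9 called. The values of those named in the text follow. With library totals alone they were Plxnd1 -0.22, Ephb4 -0.24, Efnb1 -0.18, Efna1 -0.07, Robo4 -0.22, Nrp1 -0.30 and Slit2 -1.5e-05. With length correction they were Sema4a 0.12, Efna1 -0.04, Unc5a 0.03, Ntn1 0.12 and Sema3a 0.05. With length correction and replicate block they were Sema4a 0.12, Efna1 -0.10, Unc5a 0.02, Ntn1 0.12, Sema3a 0.08 and Sema3c 0.02. With length correction without YT-AKO replicate 2 they were Efna1 -0.37, Unc5a 0.14, Ntn1 0.21, Sema3c 0.03, Sema3e 0.07 and Unc5b 0.13. Leaving out 1 library gave ranges of -0.06 to 0.26 for Plxnd1, -0.02 to 0.18 for Ephb4, -0.32 to 0.07 for Ephb6, -0.13 to 0.52 for Efna1, -0.28 to 0.13 for Unc5a, -0.27 to 0.05 for Ntn1 and -0.30 to 0.23 for Nrp1.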
